A study of Mus musculus with 4 samples.

Results

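The T cell receptor variable segments measured here were all genes whose symbol begins with Trav or Trbv, 163 of the 32285 genes in the count tables. They comprised 128 Trav genes on chromosome 14 and 35 Trbv genes on chromosome 6. A T cell was a barcode with at least 2 UMIs (unique molecular identifiers, each standing for 1 captured RNA molecule) of Cd3d, Cd3e and Cd3g together, at least 300 detected genes and at most 10% mitochondrial UMIs. Each T cell was assigned its leading Trav and its leading Trbv gene when that gene held at least 3 UMIs, and a cell with both is called paired. There were 2014 T cells among 8132 barcodes of control tumours. The other libraries gave 2580 of 8313 after CD40 antibody, 2437 of 10158 after PD1 antibody and 4067 of 10091 after the combination.

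The T cell receptor of conventional T cells is a dimer of an alpha and a beta chain that recognises peptides held by MHC molecules. In the thymus each cell joins 1 of many Trav segments to a Traj segment, and a Trbv segment to Trbd and Trbj segments, so that the V pair together with the partly untemplated junction (CDR3) marks a clone and its descendants. The beta chain then ends in Trbc1 or Trbc2, each with its own Trbj cluster upstream. CD8 T cells kill tumour cells shown to them by MHC class I, and Foxp3-positive regulatory T cells restrain such responses. When a clone divides in a tumour, its V segments take a larger share of all T cells. The count tables hold no junction sequence, so a V pair can contain several clones and is not called a clone here.

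Leukocytes came from B16-F10 melanomas, a transplantable mouse skin tumour line, and tumours were taken on day 14 after inoculation. The control mice received dilution buffer into the tumour and an IgG antibody intravenously. The CD40 group received CD40 antibody intratumorally, the PD1 group PD1 antibody intravenously, and the combination group both, on days 8 and 11. The buffer and the IgG antibody are read from a protocol text shared by all samples, while the sample labels name only the treatment. Suspensions of 6 mice per group were pooled before live CD45+ cells were sorted, and each group is 1 library. Spread between mice was therefore not measured, no test between treatments is possible, and every interval below is a 95% interval for counting error only. Cells of 1 clone are not independent, so these intervals are too narrow for a comparison of mice. Where 4 values stand in a row without names, their order is control, CD40, PD1, combination, called library order below.

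The ends of the V segments that led the results are shown because this is the germline stretch that runs into the junction. Each line gives the last 60 bases of the segment, 5′ to 3′, from the GENCODE vM21 transcripts of build GRCm38, with the codon of the conserved second cysteine, where CDR3 begins, in capitals.
Trbv2 (chr6:41047936-41047995, + strand): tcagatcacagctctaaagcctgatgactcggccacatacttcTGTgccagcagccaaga
Trbv3 (chr6:41048769-41048828, + strand): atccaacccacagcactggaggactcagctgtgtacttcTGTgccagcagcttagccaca
Trbv5 (chr6:41062744-41062803, + strand): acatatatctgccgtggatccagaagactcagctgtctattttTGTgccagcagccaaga
Trbv13-1 (chr6:41116409-41116468, + strand): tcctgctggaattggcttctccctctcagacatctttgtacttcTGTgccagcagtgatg
Trbv19 (chr6:41178989-41179048, + strand): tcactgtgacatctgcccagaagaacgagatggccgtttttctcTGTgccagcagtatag
Trav3-3 (chr14:53666447-53666506, + strand): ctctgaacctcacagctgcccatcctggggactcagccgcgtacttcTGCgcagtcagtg
Trav9-1 (chr14:53488508-53488567, + strand): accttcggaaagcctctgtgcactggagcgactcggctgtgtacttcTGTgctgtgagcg
Trav10 (chr14:53506227-53506286, + strand): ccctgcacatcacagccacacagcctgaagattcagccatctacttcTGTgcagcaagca
Trav14-1 (chr14:53554499-53554558, + strand): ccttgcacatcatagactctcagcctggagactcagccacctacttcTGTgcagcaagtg
The 4 Trav ends each carry 10 annotated bases after the codon and the Trbv ends 13 to 18, the most in Trbv3. By annotation these bases belong to the segment and follow the start of CDR3. How many of them a cell keeps cannot be read from the counts. All 9 segments have 2 exons, the leader and the V exon, and each printed stretch lies in the V exon.

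Trav genes are hard to tell apart. The Trav locus carries large duplicated blocks whose copies are marked d and n, and over their last 290 bases 38 of 128 Trav genes were identical to another Trav gene, 59 were at least 99% identical and 91 at least 97%. No Trbv gene reached 97% identity with another. Trav7-3 (chr14:53443249-53443839) and Trav7d-3 (chr14:52744249-52744840) are shown as an example that bears on the pairs below. They differ at 2 of 290 bases, in capitals.
Trav7-3: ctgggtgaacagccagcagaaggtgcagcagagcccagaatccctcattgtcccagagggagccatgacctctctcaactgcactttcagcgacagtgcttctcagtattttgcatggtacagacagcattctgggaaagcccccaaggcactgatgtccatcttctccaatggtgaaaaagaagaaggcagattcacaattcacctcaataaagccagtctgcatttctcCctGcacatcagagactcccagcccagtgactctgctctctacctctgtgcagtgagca
Trav7d-3: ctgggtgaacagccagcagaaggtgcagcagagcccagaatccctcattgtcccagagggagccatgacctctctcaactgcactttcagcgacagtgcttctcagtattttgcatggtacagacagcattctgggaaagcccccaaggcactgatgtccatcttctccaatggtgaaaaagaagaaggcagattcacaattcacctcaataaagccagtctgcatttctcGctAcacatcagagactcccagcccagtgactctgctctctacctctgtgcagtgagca
Counts between such copies are uncertain, and results for a d or n copy were also computed with copies summed.

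Of the 128 Trav genes, 20 are annotated as pseudogenes, 32 had no UMI in any T cell and 74 led in at least 1 cell. Of the 35 Trbv genes, 13 are annotated as pseudogenes, 8 had no UMI and 23 led in at least 1 cell. In CD8 T cells 42 Trav and 19 Trbv genes led in at least 1 cell of each of the 4 libraries. CD8 T cells were those with at least 2 UMIs of Cd8a and Cd8b1, no Cd4 and no Foxp3 UMI. They numbered 695, 1923, 1154 and 3244 in library order. Foxp3-positive cells had at least 1 Foxp3 UMI and numbered 616, 232, 582 and 262. The remaining T cells numbered 703, 425, 701 and 561.

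Median depth was 13034, 13904, 17456 and 14288.5 UMIs per CD8 T cell in library order. A Trbv segment was assigned in 85.6%, 93.1%, 83.7% and 93.6% of these cells and a Trav segment in 44.0%, 54.9%, 52.4% and 50.9%. Both were assigned in 280, 1008, 520 and 1588 CD8 T cells, and in 215, 123, 252 and 149 Foxp3-positive cells. In the combination library 355 CD8 cells had a leading Trav with 2 UMIs and 245 one with 3 UMIs. Free RNA was read in other cells. Among cells with at least 5 Lyz2 UMIs and no Cd3 UMI, which should lack receptors, at most 0.0275% reached 3 UMIs of a Trav or Trbv gene in any library, at median depths from 13279.5 to 18408 UMIs, although 2.00%, 4.42%, 2.76% and 6.73% of them had at least 1 Trbv UMI. Library pairs shared 94 to 144 cell barcodes. Markers of mononuclear phagocytes (Lyz2, Csf1r, Adgre1, C1qa and Ms4a7) all had UMIs in the CD8 class of every library, at a summed 938 to 1387 CPM (counts per 1000000 UMIs of the class), and neutrophil markers stood at 26.6, 116, 43.5 and 397 CPM. Their part in the results was not tested.

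The beta chain gave a different leading segment in each library's CD8 T cells. In the control library Trbv2 led with 107 of 595 assigned cells, 18.0% (interval 15.0 to 21.3%); after thinning to 5000 UMIs per cell it held 13.2% and no longer led. In the CD40 library Trbv19 led with 281 of 1790 cells, 15.7% (14.0 to 17.5%). In the PD1 library Trbv1 led with 183 of 966 cells, 18.9% (16.5 to 21.6%), closely followed by Trbv5 with 170 cells, 17.6% (15.2 to 20.1%). In the combination library Trbv3 led with 671 of 3037 cells, 22.1% (20.6 to 23.6%), followed by Trbv19 with 619 cells, 20.4% (19.0 to 21.9%).

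Several of these segments were high in 1 library and low in the others. Trbv5 was at 17.6% with PD1 antibody and at 1.34% in the control, with 1.51% in each library that received CD40 antibody, a log2 ratio to the control of 3.71 (2.70 to 4.95). Trbv1 stood at 3.70%, 6.15%, 18.9% and 3.39%. Only the PD1 library was high for Trbv1, and the control and combination intervals overlapped. Trbv23 was assigned in 54 control CD8 cells, 9.08% (6.89 to 11.7%), but in 0 of 1790 cells with CD40 antibody, 1 of 966 with PD1 antibody and 1 of 3037 with both. Its log2 ratio of the CD40 library to the control, with the count of 0 set to 3 cells, was at most -5.76. Trbv31, the only Trbv gene on the minus strand, was at 9.61% (8.28 to 11.1%) in the CD40 library against 1.51% (control), 2.17% (PD1) and 0.626% (combination).

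Trbv2 was lower in every treated library than in the control: 5.53%, 5.90% and 3.13% with CD40 antibody, PD1 antibody and both. Trbv3 and Trbv19 were highest in the combination library and lowest in the PD1 library. Trbv19 reached 7.90%, 15.7%, 6.00% and 20.4%. The combination exceeded the PD1 library by a log2 ratio of 1.76 (1.37 to 2.18), and the CD40 library by 0.38 (0.17 to 0.59). Trbv3 was at 9.08%, 11.5%, 5.90% and 22.1%, where the control and CD40 intervals overlapped. Trbv13-1 was at 7.23%, 4.13%, 2.48% and 11.5%. Trbv16 varied least among the leading Trbv segments in CD8 cells, from 5.42% to 10.3%, together with Trbv13-2, which ranged from 2.86% to 5.47%.

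**Figure D1:**
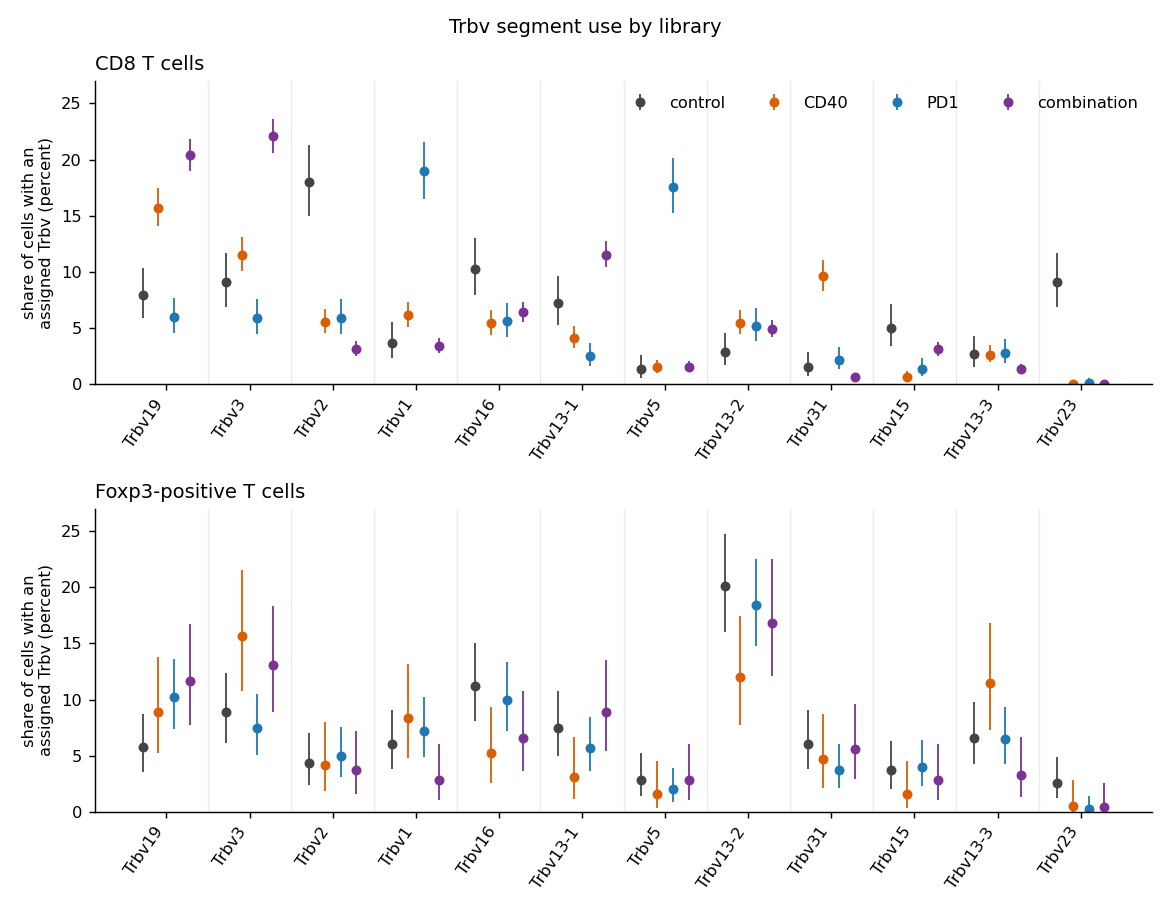
Share of CD8 (top) and Foxp3-positive (bottom) T cells whose leading Trbv gene is the one named, in percent of cells with an assigned Trbv, by library. Points are single libraries of 6 pooled mice and bars are exact 95% intervals for counting error. In CD8 cells Trbv2, Trbv1, Trbv5, Trbv31 and Trbv23 each stand out in 1 library, while in Foxp3-positive cells Trbv13-2 is the highest segment in 3 of 4 libraries, at 16.8% to 20.1%.

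The alpha chain showed the same kind of difference with smaller numbers of cells. Trav14-1 led in 99 of 605 assigned CD8 cells of the PD1 library, 16.4% (13.5 to 19.6%), against 0.980% (control), 2.75% (CD40) and 0.484% (combination). The highest and lowest library differed 33.8-fold. Trav10n, counted apart from its near-copies Trav10 and Trav10d, was at 11.1% in the PD1 library against 2.29% (control), 0.758% (CD40) and 2.91% (combination). With the copies summed under Trav10 the control and PD1 libraries were both high, with overlapping intervals, at 13.7% (10.1 to 18.1%) and 13.5% (10.9 to 16.5%), against 2.27% (CD40) and 6.27% (combination). Trav9-1 led in 132 of 1652 cells of the combination library, 7.99% (6.73 to 9.40%), and in 3 control, 6 CD40 and 2 PD1 cells. Trav3-3 was highest in the CD40 library, at 11.3% against 2.48% to 4.48% elsewhere.

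Control CD8 cells used Trav16d-dv11 and Trav12-2 most, each in 36 of 306 cells or 11.8% (8.38 to 15.9%). Trav16d-dv11 was at 6.34% with CD40 antibody, 0.496% with PD1 antibody and 1.15% with both. With copies summed under Trav16 the shares were 13.4%, 14.2%, 2.64% and 6.69% in library order, and the log2 ratio of PD1 to control moved from -4.57 to -2.35. Summed, Trav10 led the control library and Trav16 the CD40 library, in place of Trav12-2 and Trav3-3. Trav7d-3 was at 6.86%, 0.189%, 1.32% and 0.242% in library order, a log2 ratio of PD1 to control of -2.38. With its copies summed this ratio was -0.67, and Trav7-3 itself was at 3.64% in the PD1 library and 0.980% in the control. Trav10 counted apart was at 10.1% in the control against 1.23% (CD40), 2.31% (PD1) and 3.33% (combination), but the summed Trav10 copies given above did not separate the control from the PD1 library. Trav14-2, which led the combination library at 8.60% (7.29 to 10.1%), was at 7.39% in the CD40 library, and these intervals overlapped. Trav14-2 no longer led the combination library with a minimum of 5 UMIs, at 6.94%, without cells carrying a second Trbv, at 5.20%, or after thinning to 5000 UMIs, at 5.08%.

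Summed UMIs passed 2-fold between libraries in a larger share of V segments than of all genes. Among genes with at least 50 UMIs over both libraries' CD8 cells, 44 of 68 V segments differed 2-fold or more between CD40 and control, while this held for 5.69% of all genes. For PD1 against control it was 37 of 61 segments and 3.45% of all genes. For the combination it was 51 of 80 segments against the PD1 library, with 5.23% of all genes, and 46 of 84 against the CD40 library, with 2.79% of all genes. The median absolute log2 difference of the segments lay between 1.14 and 1.47 in these comparisons and that of all genes between 0.12 and 0.20. In Foxp3-positive cells 30 of 54, 31 of 63, 33 of 59 and 22 of 46 segments passed 2-fold for CD40 against control, PD1 against control, combination against PD1 and combination against CD40. All genes gave 4.02%, 1.77%, 5.93% and 5.68% in the same order. The minimum of 50 UMIs leaves out segments that are low in both libraries, so these counts describe the expressed segments and not all 163. An assigned CD8 cell held a median of 12 to 23 UMIs of its leading Trbv and 6 to 8 of its leading Trav. A segment can thus reach 50 UMIs through a few cells of 1 library. The number of cells behind each gene was not matched, so the 2 sets of shares are not on equal terms.

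Foxp3-positive cells were led by another beta segment. Trbv13-2 was assigned in 20.1%, 12.0%, 18.4% and 16.8% of these cells in library order. In CD8 cells the same segment stood at 2.86%, 5.47%, 5.18% and 4.91%, below the Foxp3-positive interval in each library. Trbv3 was at 8.91%, 15.6%, 7.46% and 13.1% of Foxp3-positive cells, and led them in the CD40 library. Some segments that stood out in CD8 cells did not do so here: Trbv5 was at 1.56% to 2.87% and Trbv2 at 3.74% to 4.98% over the 4 libraries. Trbv1 ranged from 2.80% to 8.33% and Trbv31 from 3.73% to 6.03%. Trbv19 and Trbv13-1 were highest in the combination library in both classes, here at 11.7% (7.70 to 16.8%) and 8.88% (5.43 to 13.5%). These intervals overlapped those of the next library. Trbv23 was highest in the control here too, at 2.59% against 0.249% to 0.521%. As a summary, the share of cells that would have to change segment for 1 library's Trbv use to equal another's was 28.2% to 45.5% over the 6 library pairs in CD8 cells, and 14.1% to 29.8% in Foxp3-positive cells. Small numbers of cells raise this measure, and Foxp3-positive cells were the fewer in each library.

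Among alpha segments of Foxp3-positive cells, Trav14n-3 had the highest mean, at 2.84%, 6.12%, 7.84% and 5.85%. With its copies summed under Trav14-3 the shares were 11.4%, 10.8%, 10.1% and 9.94%, the highest in each library and with overlapping intervals. Trav4-4-dv10 was at 8.52%, 5.44%, 2.80% and 1.75%, and Trav7-4 at 5.40%, 5.44%, 4.20% and 1.75%. The PD1 library differed from the control by a log2 ratio of -3.48 (-6.61 to -1.46) for Trav7-1 and of 2.62 (1.09 to 4.61) for Trav13-1. With copies summed the ratio for Trav13-1 was 1.46 (0.38 to 2.67). With at least 20 cells in the higher library, 4 segments differed 3-fold between PD1 and control in Foxp3-positive cells and 13 in CD8 cells. These are counts with unequal numbers of cells, and the number of segments able to reach 20 cells was not matched. In Foxp3-positive cells the Trav of rank 5 held 17 cells in the control and 15 in the PD1 library. In CD8 cells it held 16 and 27. The counts of 4 and 13 are therefore not a comparison of the classes.

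Trav and Trbv segments came in recurrent pairs. In the control library Trav10/Trbv2 held 28 of 280 paired CD8 cells, 10.0% (6.75 to 14.1%), Trav16d-dv11/Trbv23 held 26 and Trav12-2/Trbv3 held 24. In the CD40 library Trav3-3/Trbv2 held 75 of 1008, 7.44% (5.90 to 9.24%), Trav16d-dv11/Trbv14 held 58, and Trav6-7-dv9/Trbv3 and Trav8-1/Trbv1 held 36 each. The PD1 library was led by Trav14-1/Trbv5 with 62 of 520, 11.9% (9.26 to 15.0%), then Trav10n/Trbv5 with 49 and Trav9-2/Trbv16 with 31. In the combination library Trav9-1/Trbv13-1 held 106 of 1588, 6.68% (5.50 to 8.02%), Trav14-2/Trbv19 held 75, and Trav12-2/Trbv3 and Trav14n-3/Trbv19 held 62 each. After thinning each cell to 5000 UMIs, which leaves out shallower cells, the leading pairs of the control, CD40 and PD1 libraries held 2.06%, 4.23% and 5.52% and no longer led.

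Among paired cells, these pairs carried much of the use of several segments described above. The share of cells that were paired differed between segments. In the PD1 library 47 of 183 Trbv1 cells and 131 of 170 Trbv5 cells were paired, and in the combination library 254 of 671 Trbv3 cells. The pairs therefore leave out most Trbv1 cells of the PD1 library, and the part of Trav detection in the order of pairs was not tested. Of paired Trbv23 cells in the control library, 26 of 27 had Trav16d-dv11. Of paired Trbv2 cells, 28 of 52 had Trav10 in the control and 75 of 88 had Trav3-3 in the CD40 library, so the same beta segment had a different main partner. Trbv5 cells of the PD1 library divided mainly between Trav14-1, with 62 of 131 cells, and Trav10n. By contrast, Trbv3 and Trbv19 in the combination library were spread over 39 and 36 Trav partners, and their leading partners held 24.4% and 25.1% of cells. Trbv23 in the control had 2 alpha partners and Trbv5 in the PD1 library 11.

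**Figure D2:**
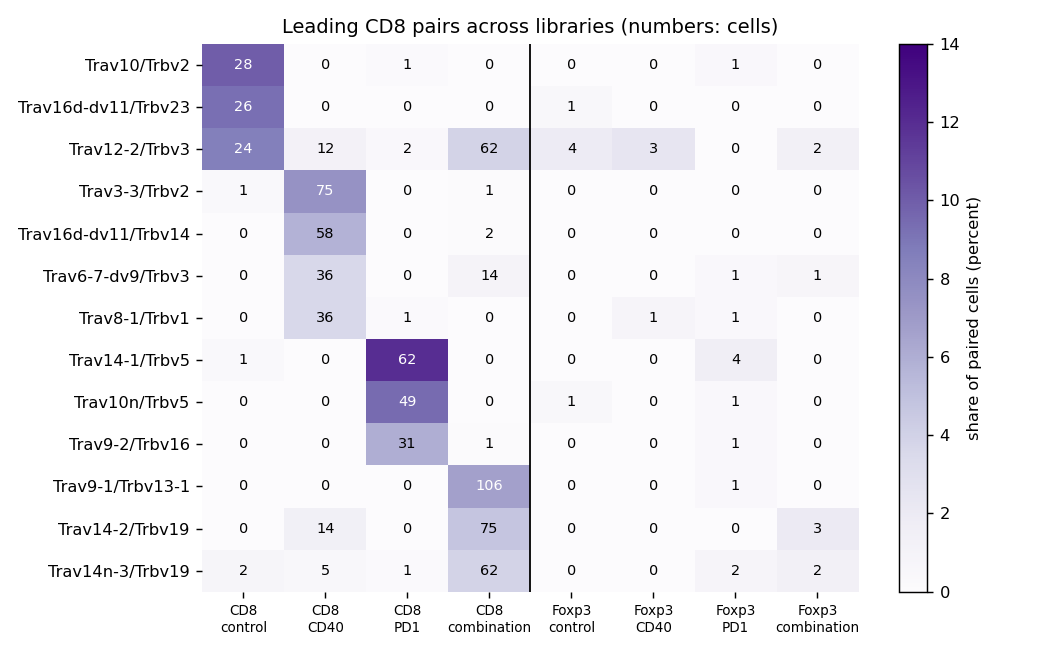
Leading Trav/Trbv pairs of CD8 T cells, 3 per library with ties kept, across all libraries and in Foxp3-positive cells. Numbers are cells and shading is the share of the library's paired cells of that class in percent. Of the 13 different pairs, Trav12-2/Trbv3 is the one among the leading pairs of both the control and the combination library.

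Paired CD8 cells were more concentrated on few pairs than Foxp3-positive cells were. The chance that any pair of cells from 1 library shared a V pair was 3.47%, 1.97%, 3.43% and 1.56% in CD8 cells. It was 0.630%, 0.506%, 0.446% and 0.390% in Foxp3-positive cells. Independent use of Trav and Trbv segments would give 0.458%, 0.339%, 0.514% and 0.392% in CD8 cells. In Foxp3-positive cells it would give 0.323%, 0.259%, 0.261% and 0.211%, below the observed value in each library. After thinning to 5000 UMIs per cell the observed CD8 values were 2.10%, 2.07%, 1.77% and 1.89%, so their order changed. Each stayed above the observed Foxp3-positive value of its library. Pairs with 10 or more cells numbered 5, 23, 9 and 35 in CD8 cells and held 38.9%, 55.9%, 46.3% and 55.2% of the paired cells, but the libraries with more cells have more room for such pairs. Drawn down to 123 cells in closed form, CD8 cells would show 64.6, 67.5, 64.3 and 76.8 different pairs and Foxp3-positive cells 91.9, 94.0, 97.8 and 103 pairs. At 280 CD8 cells the values were 119, 114, 118 and 137 pairs. At this equal number of cells the combination library had the most different CD8 pairs, and the other 3 libraries lay within 5 pairs of each other. The number of cells was matched here and the depth was not.

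**Figure D3:**
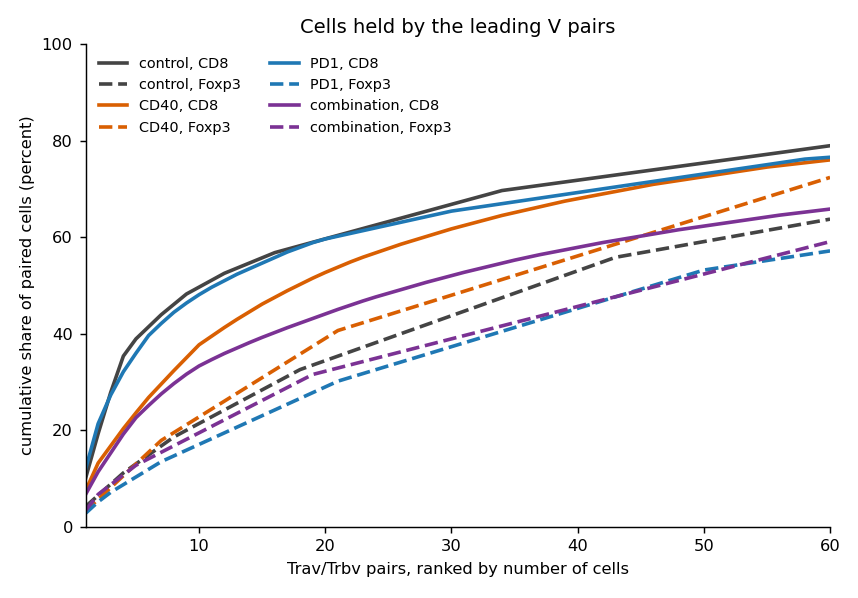
Cumulative share of paired cells, in percent, held by the most frequent Trav/Trbv pairs, against the rank of the pair, for CD8 (solid) and Foxp3-positive (dashed) cells of each library. Each line is 1 library of 6 pooled mice. The 10 leading pairs hold 49.6% of control, 37.7% of CD40, 48.1% of PD1 and 33.3% of combination CD8 cells, above 17.1% to 22.8% in Foxp3-positive cells.

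Most large CD8 pairs were large in 1 library. Only 5 pairs held 10 or more cells in more than 1 library: Trav12-1/Trbv13-2, Trav12-2/Trbv3, Trav14-2/Trbv12-1, Trav14-2/Trbv19 and Trav6-7-dv9/Trbv3. Of these, 4 were large in both the CD40 and combination libraries, which had the most paired CD8 cells. Of the 23 large pairs of the CD40 library 19 were found in at least 1 cell of another library, as were 24 of 35 in the combination, 6 of 9 in the PD1 and 3 of 5 in the control library. Of all pairs with at least 2 cells, large ones included, 81 of 112 (CD40), 110 of 186 (combination), 39 of 58 (PD1) and 23 of 34 (control) were. Trav9-1/Trbv13-1, with 106 cells in the combination library, was seen in 0 of 280, 0 of 1008 and 0 of 520 paired CD8 cells of the other libraries. Trav9-1 itself led there in only 0.980% (control), 0.568% (CD40) and 0.331% (PD1) of CD8 cells with an assigned Trav.

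The joining and constant genes were not used to choose the pairs and give a separate view of them. A rearranged beta chain transcript carries either Trbc1 or Trbc2. Trbc1 was detected in 46.8% to 69.0% of the other paired CD8 cells of the same library, depending on the pair set aside. Among the 14 leading pairs, 3 lay below these cells and 8 above, beyond the counting interval. Trav16d-dv11/Trbv23 of the control library had Trbc1 in 0 of 26 cells, against 57.1% of the others, and Trav9-2/Trbv16 of the PD1 library in 0 of 31, against 65.4%. In the combination library Trav14-2/Trbv19 had it in 7 of 75 cells, 9.33% (3.84 to 18.3%), against 64.4%. At the other end stood Trav14-1/Trbv5 with 62 of 62 cells and Trav10n/Trbv5 with 49 of 49 in the PD1 library, Trav9-1/Trbv13-1 with 104 of 106 in the combination library, and Trav10/Trbv2 with 27 of 28 in the control. Trav14n-3/Trbv19 of the combination library, at 56.5% against 62.1%, and Trav6-7-dv9/Trbv3 of the CD40 library, at 63.9% against 69.0%, did not differ from the other cells beyond their intervals.

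For some V pairs the detection of Trbc1 differed between libraries. Trav12-2/Trbv3 had Trbc1 in 95.8% of 24 control cells, in 0 of 12 CD40 cells and in 72.6% of 62 combination cells. Trav12-1/Trbv13-2 had it in 11 of 12 cells of the PD1 library and in 0 of 11 of the combination library. These are shared V pairs with unlike constant gene readouts. Trav7d-3/Trbv20 in the control and Trav7-3/Trbv20 in the PD1 library, whose alpha segments are the near-copies shown above, had Trbc1 in 0 of 21 and 1 of 20 cells. These 2 pairs, and those of 10 to 12 cells, were picked out after their values were seen.

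Joining segments were read in fewer cells, since Traj UMIs were found in 27.4% to 33.3% of CD8 cells. A joining gene was assigned from any UMI count without a tie, not from the minimum of 3 UMIs asked of V segments. Free RNA was not read for joining genes, so these assignments are less firm. Each joining gene named was chosen as the commonest in its pair. In Trav14-2/Trbv19 of the combination library Traj30 led in 29 of 40 cells with an assigned Traj, 72.5%, against 13.0% of other cells. Among the other Trbv19 cells of that library Traj30 led in 23 of 70, 32.9%, and in Trav1/Trbv19 in 10 of 21. Traj30 was thus common among Trbv19 cells beyond this pair. In Trav10n/Trbv5 of the PD1 library Traj7 led in 8 of 9 cells, against 7.27% of other cells and 3 of 22 other Trbv5 cells. Trav9-1/Trbv13-1 had Trbj2-5 in 38 of 66 cells, 57.6%, against 10.6% of others, and Trav16d-dv11/Trbv14 of the CD40 library had Trbj2-1 in 20 of 32, 62.5%, against 21.5%. Trav14-1/Trbv5 had no single Traj above 15.0% of 20 cells, while its Trbc1 was uniform. Its commonest Trbj gene was Trbj2-1, with 14 of 31 cells. Trbj2 genes lie upstream of Trbc2 and downstream of Trbc1, and in Trav9-1/Trbv13-1 and Trav14-1/Trbv5 nearly all cells also showed Trbc1 UMIs. The Trbc1 share of Trbc1 and Trbc2 UMIs together was 48.2% and 53.5% in these pairs, and 33.9% and 36.3% in other cells.

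**Figure D4:**
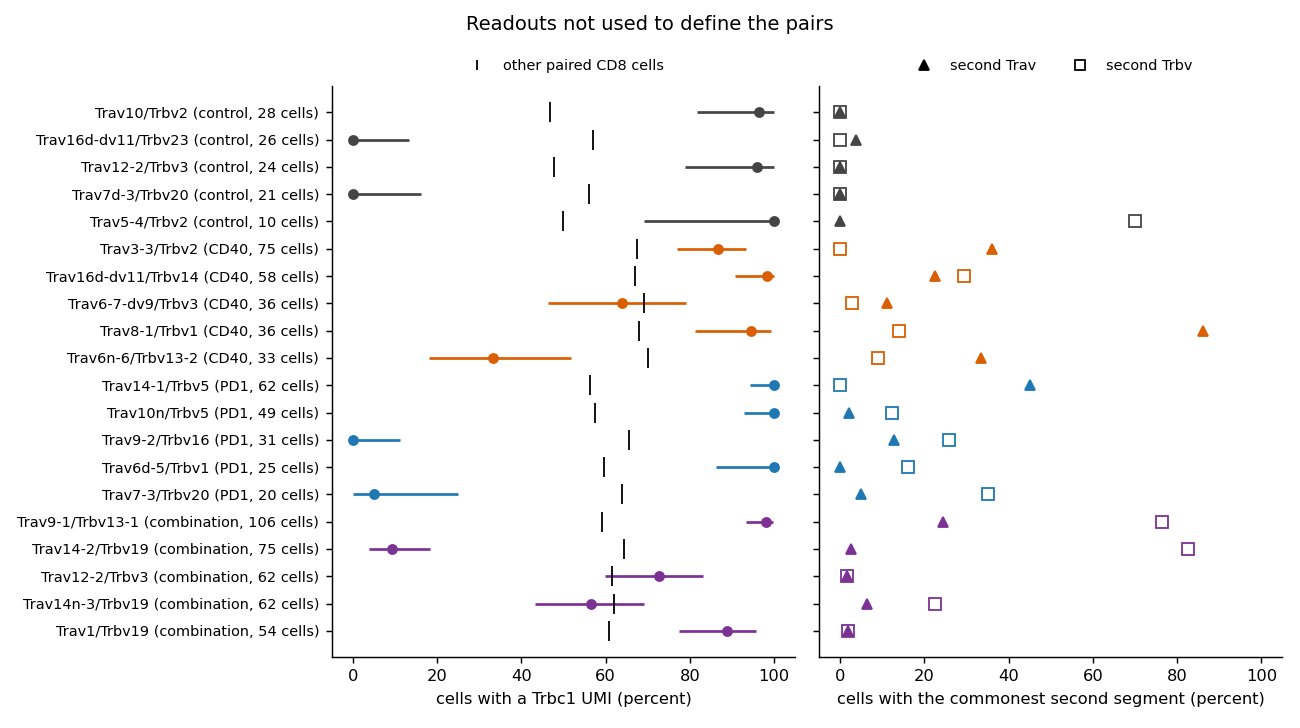
Left, share of cells with a Trbc1 UMI in the 5 leading CD8 pairs of each library (points, with exact 95% intervals) and in the other paired CD8 cells of that library (black ticks). Right, share of the pair's cells that carry its commonest second Trav (triangles) or second Trbv (squares) with at least 3 UMIs; Trav8-1/Trbv1, Trav9-1/Trbv13-1 and Trav14-2/Trbv19 lie above 75%.

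Some pairs carried a recurrent second segment. T cells can rearrange both alleles, most often of the alpha locus, and a droplet with a pair of cells also gives a second segment. A second Trbv of at least 3 UMIs was present in 13.2%, 18.0%, 11.8% and 21.4% of CD8 cells in library order. Median depth was 22730 UMIs in combination cells with a second Trbv and 12760 in those without. In Trav8-1/Trbv1 of the CD40 library, 31 of 36 cells had Trav16n as second alpha segment, against 2 of the 972 other paired cells. Trav14-1/Trbv5 of the PD1 library had Trav12-3 in 28 of 62 cells, and 12 of 458 others did. Trav3-3/Trbv2 of the CD40 library had Trav12-1 in 27 of 75 cells, or 36.0%, against 1.29% of others.

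In the combination library Trbv1 was the second beta segment in 62 of 75 Trav14-2/Trbv19 cells and in 81 of 106 Trav9-1/Trbv13-1 cells, and in 7.40% and 6.28% of the cells outside each pair. Both pairs were deep, with medians of 34339 and 24245 UMIs per cell against 16643 and 16968.5 in other cells. When cells with a second Trbv were removed, Trav9-1/Trbv13-1 held 1.94% of paired combination cells in place of 6.68% and no longer led. Scrublet doublet scores of 0.25 or more were found in 5.77% of combination CD8 cells with a second Trbv and in 5.29% of those without. Droplets of similar CD8 cells can escape such scores, so the part of droplets with several cells was not tested by them.

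CD8 cells of large pairs differed in expression from cells whose pair was seen once. Comparing summed UMIs of pairs with 10 or more cells with those of pairs of 1 cell in the same library, all 8 naive and stem-like genes were lower in every library. In library order 8, 7, 8 and 6 of them were lower by 2-fold or more, with list medians of -3.88, -1.45, -2.91 and -1.58 on the log2 scale. Of all genes with 10 UMIs, 14.2%, 6.05%, 9.26% and 7.65% passed 2-fold in either direction, and their medians lay between -0.04 and 0.07. Tcf7, the transcription factor of stem-like T cells, was at 7.38 CPM in large and 214 CPM in single control pairs, with log2 ratios of -4.86, -3.42, -4.48 and -2.83 in the 4 libraries. Cells of large pairs were also deeper in the control, with a median of 22111 UMIs against 9301, and in the PD1 library, with 25579 against 11913.5. The gap was smaller in the CD40 library, at 15818 against 15181, and in the combination library, at 18564 against 15040, and its part in these values was not tested.

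Most genes of the inhibitory list (Pdcd1, Havcr2, Lag3, Tigit, Ctla4, Tox, Entpd1 and Cd244a) had log2 ratios above 0 in large pairs. So did Prf1, Gzmb and Ccl4 among the cytotoxic genes. The 8 inhibitory genes had list medians of 1.33, 0.69, 0.53 and 0.63, with 8, 8, 6 and 8 of them above 0 and 6, 0, 2 and 0 past 2-fold. Of all genes with 10 UMIs, 55.5%, 48.7%, 48.7% and 45.3% were above 0, and the shares past 2-fold are those given above. Havcr2, which encodes TIM-3, had log2 ratios of 1.98, 0.55, 1.25 and 0.91, and Pdcd1, the target of the PD1 antibody, 1.11, 0.74, 0.47 and 0.73. The cytotoxic list had medians of 1.12, 0.20, 0.70 and 0.46. Prf1 (perforin) was higher by 1.96, 1.30, 1.30 and 1.42 on the log2 scale, while Gzmk was near 0 or lower, at 0.11, -0.03, -0.82 and -0.32. Granzyme B (Gzmb) was at 1.52, 0.65, 0.92 and 0.73 and the chemokine gene Ccl4 at 2.19, 0.92, 1.04 and 1.00. Granzyme A (Gzma) was lower, at -0.75, -1.77, -1.43 and -1.08, and its control interval of -1.99 to 0.54 included 0. Antigen-induced genes were mixed, with medians of -1.10, -0.43, -0.46 and 0.28: Tnfrsf9 was higher in each library, by 1.83, 0.85, 0.76 and 0.90, and Nr4a1 was lower in the control, at -1.77, and higher in the combination, at 0.28. Genes of division gave medians of 0.53, 0.00, 0.43 and 0.09, receptor complex genes 0.10, 0.20, -0.08 and -0.04, receptor signalling genes -0.04, -0.13, -0.28 and -0.24, and residency genes -0.57, -0.53, -0.60 and -0.26. The regulatory T cell list, read in cells without Foxp3 UMIs, gave 0.99, 0.32, -0.14 and 0.79. No gene of the recombination list (Rag1, Rag2 and Dntt) had 10 UMIs.

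Large pairs were not uniform. Against the other paired CD8 cells of their library, Tcf7 was at least 2-fold lower in 12 of 14 leading pairs (a count of 0 set to 3 UMIs), whereas Ifng, the main T cell cytokine against tumours, ranged from -3.79 to 2.40 on the log2 scale. Ifng stood at 2694 CPM in Trav9-2/Trbv16 of the PD1 library against 510 CPM in other cells. It was at 1584 CPM in Trav9-1/Trbv13-1 of the combination library against 448, and at 181 CPM in Trav14-2/Trbv19 of that library against 576. Those latter pairs also parted in Prf1, with log2 ratios of 1.15 (1.11 to 1.19) and -2.03 (-2.13 to -1.92), and in Mki67, a gene of dividing cells, with -0.74 (-0.88 to -0.61) and 0.69 (0.61 to 0.78).

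Trav12-2/Trbv3 also differed in expression between libraries. In the control its cells were higher in Ifng, by 2.19 on the log2 scale, and in Prf1, by 1.47, and had no Gzmk UMI, whereas in the combination library Ifng was at -3.18, Prf1 at -2.22 and Gzmk at 1.83. Trav6-7-dv9/Trbv3 of the CD40 library resembled the combination cells, with Ifng at -3.79, Prf1 at -2.67, Gzmk at 1.80 and the chemokine Ccl5 at 1.63, where Trav12-2/Trbv3 of the combination library had Ccl5 at 1.46. Counting intervals of these ratios all excluded 0, but each pair is a group of cells from 1 library.

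Foxp3-positive cells had no pair with 10 or more cells in any library. The most frequent were Trav4-4-dv10/Trbv13-2 with 9 of 215 control cells, 4.19% (1.93 to 7.80%), and Trav6-7-dv9/Trbv13-3 with 7 of 252 PD1 cells, 2.78% (1.12 to 5.64%). In the CD40 library Trav9-4/Trbv3 held 4 of 123 cells, and in the combination library Trav7-5/Trbv13-2 and Trav8-1/Trbv13-2 held 5 of 149 each. These pairs fall under the 10-cell minimum of the naming rule and are given because they were the most frequent.

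Large CD8 pairs also occurred in Foxp3-positive cells. The number of large CD8 pairs that a cell could match was 5, 23, 9 and 35 in library order, and its part was not tested. Such pairs were found in 7 of 215, 11 of 123, 12 of 252 and 29 of 149 paired Foxp3-positive cells in library order, the last being 19.5% (13.4 to 26.7%). Many of these cells also held Cd8a or Cd8b1. At least 2 such UMIs were present in 11.2%, 31.9%, 11.5% and 35.5% of Foxp3-positive cells. Of those paired cells, 5 of 23, 8 of 44, 10 of 40 and 18 of 67 carried a large CD8 pair. Among Foxp3-positive cells with no Cd8 UMI it was 0 of 165, 2 of 62, 1 of 179 and 11 of 72 in library order, and the last share was 15.3% (7.88 to 25.7%). Foxp3-positive cells with Cd8 UMIs had median depths of 18373 to 22495.5 UMIs against 7689 to 9533.5 without, and a second Trbv in 14.5%, 48.6%, 19.4% and 36.6% against 1.70%, 4.84%, 5.71% and 6.29%. CD8 markers summed to 119, 499, 211 and 827 CPM over the Foxp3-positive class, and phagocyte markers to 2215, 3638, 2372 and 1372 CPM. The part of droplets with more than 1 cell in this was not tested.

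T cells in which neither chain was assigned were few among CD8 cells, at 10.6%, 4.42%, 8.93% and 4.41%, and many among T cells that were neither CD8 nor Foxp3-positive, at 39.0%, 45.2%, 34.5% and 48.1%. In these other T cells, 24.1%, 41.1%, 24.0% and 38.5% of cells without a chain had at least 2 UMIs of the natural killer genes Ncr1 and Klrb1c. Gamma-delta constant genes (Trdc, Tcrg-C1 and Tcrg-C2) reached 2 UMIs in 27.7%, 19.8%, 22.7% and 13.3% of them. Among these other T cells with both chains it was 5.38%, 15.5%, 4% and 12.3%, so the CD40 and combination libraries differed little. In CD8 cells it was 4.05%, 4.71%, 10.7% and 6.29% without a chain and 10%, 16.2%, 10.2% and 8.50% with both. Whether cells without a chain were gamma-delta T cells was not tested. Invariant-chain segments were scarce. Trav11 and Trav11d, the alpha segments of invariant natural killer T cells, led in 0 T cells of any library. Trav11n, annotated as a pseudogene, led in 0, 3, 1 and 6 cells. Trav1, the alpha segment of mucosal-associated invariant T cells, led in 17, 5, 31 and 63 T cells, none with a UMI of Traj33, the joining segment of those cells, and 54 of the combination cells paired it with Trbv19 in CD8 cells.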

How the data were processed

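Leukocytes sorted from pooled tumours were profiled with 10x 5′ single-cell RNA sequencing, 1 library per group, per the labels' protocols. The deposited matrices hold raw UMI counts per gene and cell, made with Cell Ranger 7.0.0 on GRCm38 per the submitters' processing notes; the annotation release is not given in the sources used here. Library totals were 117735875 to 164755549 UMIs. Cells, chains and classes were defined by the thresholds given in the report, and a tie for the leading segment left a cell unassigned. Shares carry exact Clopper-Pearson 95% intervals, and ratios of shares or summed UMIs carry conditional exact intervals; a count of 0 was set to 3 counts of its library. Both cover counting error only. Cells of 1 library are not replicates, so no test was made. Differences in summed UMIs (CPM over a class) were called at 2-fold among genes with at least 50 UMIs over both libraries, or 10 UMIs for large against single pairs.

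Named segments were the 6 Trav and 6 Trbv with the highest mean CD8 share, the 5 of each in Foxp3-positive cells, and up to 6 per comparison past 3-fold with at least 20 cells in the higher library. Named pairs were the 3 largest per library and class with at least 10 cells, ties kept; other pairs, the joining genes and the second segments were picked after their values were seen. Members, lists and rules were chosen with earlier results of these data known. Doublets were not removed; Scrublet scores (scanpy 1.11.5) were computed per library, and removal was tried as an alternative. Other alternatives were minimums of 2 and 5 UMIs, copies summed, a margin over the second segment, removal of cells with a second Trbv, stricter Cd3, Cd8 and Foxp3 minimums, and thinning to 5000 UMIs per cell. Segment identity was computed with edlib 1.3.9.post1. Python 3.11.15, NumPy 2.4.6, pandas 2.3.3 and SciPy 1.17.1 were used, and the assignment and ratio code was tested on simulated data.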

Additional observations from a re-analysis of the deposited data

Results flagged for a closer look

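Among the named V segments, 5 had opposite directions in CD8 T cells in a pair of comparisons that share no library. These were CD40 antibody against control and the combination against PD1 antibody. Only named segments were examined, and Trbv15 and Trbv31 were named for passing 3-fold in CD40 against control. The share among all V segments was not computed, so the count of 5 describes this chosen list. No named segment met the rule in Foxp3-positive cells. The difference between these comparisons was not tested, since each group is 1 library. Trav12-2 had a log2 ratio of -1.64 for CD40 against control and 0.77 for the combination against PD1. Trbv1 had 0.73 and -2.48 in the same order, Trbv13-1 had -0.81 and 2.21, Trbv15 had -2.91 and 1.20, and Trbv31 had 2.67 and -1.80. Trbv31 was thus high in the CD40 library alone, and Trbv15 was highest in the control library at 5.04% of assigned CD8 cells.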

How the results depend on the processing

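Of 270 alternative values of segment ratios between libraries, 257 moved by less than their counting interval, 13 by more, and none reversed. Only ratios named for passing 3-fold in these data were varied, so a change of sign was unlikely from the start. The share of T cells with both chains assigned, in the order control, CD40, PD1 and combination, was 41.7%, 55.9%, 49.3% and 56.1% with a minimum of 2 UMIs, 17.6%, 35.9%, 24.5% and 33.5% with 5 UMIs, and 16.2%, 26.9%, 18.5% and 21.7% after thinning to 5000 UMIs per cell. With at least 4 Cd3 UMIs it was 49.7% (CD40), 41.1% (PD1) and 48.3% (combination), and 44.5%, 36.4% and 41.2% for the same 3 without cells carrying a second Trbv. Removing those cells gave Trav3-3/Trbv2 9.54% of CD40 and Trav9-1/Trbv13-1 1.94% of combination paired CD8 cells, and Trav14-2 5.20% and Trbv3 26.1% of assigned combination cells. With 5 UMIs Trav9-1/Trbv13-1 held 8.61% and Trav14-2 6.94%. Thinning gave Trav10/Trbv2 2.06%, Trav3-3/Trbv2 4.23%, Trav14-1/Trbv5 5.52% and Trav9-1/Trbv13-1 8.28%, of which the first 3 no longer led their library. It gave Trbv2 13.2% of control, Trav14-1 23.7% and Trbv1 23.9% of PD1, and Trav14-2 5.08% and Trbv3 24.2% of combination cells, and the leading Foxp3-positive control pair 8.22%. The chance that cells share a pair was 2.10% in control and 1.77% in PD1 CD8 cells, and 1.10% in control and 0.242% in combination Foxp3-positive cells, after thinning. It was 0.765% in CD40 Foxp3-positive cells with at least 2 Foxp3 and no Cd8 UMIs. Of 72 alternative shares of the leading CD8 segments, 10 no longer led: Trav14-2 as above, Trav12-2 with copies summed, 2 UMIs, 5 Cd8 UMIs or no second Trbv, Trav3-3 with copies summed, Trbv1 with 2 UMIs and Trbv2 after thinning. The leading CD8 pair no longer led in 7 of 36 alternatives, not all named here, and the leading Foxp3-positive pair in 2 of 36. The cause of these moves was not tested. CD8 cells stayed more concentrated than Foxp3-positive cells of their library under every alternative, by 1.91 to 8.36 times. No paired analysis was possible because each group is 1 library.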
